A study of Arabidopsis thaliana with 24 samples.

Results

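Flavonoids are phenolic pigments and sunscreens that plants build from phenylalanine, and in Arabidopsis seedlings they accumulate as flavonols and, in light or under stress, as red anthocyanins. The 10 genes described here are a fixed list of loci out of 33602 genes counted, drawn up with earlier results of these data known. They are 5 enzyme genes of the shared trunk and the flavonol branch (CHS, CHI, F3H, F3'H and FLS1), 2 enzyme genes of the anthocyanin branch (DFR and LDOX) and 3 MYB transcription factor genes (PAP1, MYB12 and MYB111). All 10 were detected in the parental seedlings.

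The study compared wild-type (WT) seedlings of Arabidopsis thaliana with prmt5-5 mutants in 2 accessions, Landsberg erecta (Ler) and Columbia (Col), and in the F1 hybrids of both crosses between these, with 3 libraries in each of 8 groups. PRMT5 is a protein arginine methyltransferase that acts on histones and on spliceosomal proteins. Per the labels, prmt5-5 was isolated in Col-0 and carried into Ler by 7 backcrosses, and each F1 mutant had a prmt5-5 parent on either side. The F1 groups are named Col x Ler and Ler x Col, and the seed parent was not read from that order. Whole seedlings were harvested at 9 days after 4 days of stratification, grown at 22 °C in continuous light on MS medium, although a growth field of the labels also names soil and long days. Whether replicates came from separate plantings is not stated in the labels, and p-values therefore reflect the spread between these samples alone.

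The parental libraries held 36993250 to 72713735 counts, and the F1 libraries held 6047673 to 29376326 counts that had been assigned to an allele. The 2 kinds of library are not on one scale, since only reads that cover a sequence difference can be assigned. PRMT5 RNA did not separate mutant from WT in the parents (29.9 to 34.7 counts per 1000000 of the scaled library total, CPM, in WT and 29.7 to 37.2 in prmt5-5), but its Ler share of allele counts was 53.1% of 1046 in WT F1 and 0.189% of 1057 in prmt5-5 F1 (exact 95% intervals 50% to 56.1% and 0.0229% to 0.682%). The mutant allele of either parent derives from Col-0. Low allele counts were mostly even (75.4% of counts from 1 to 20, and 65.7% in the parents), so counts may not be independent reads. Intervals from counts treat each count as independent and may be too narrow even for counting error. They leave out the spread between libraries. Markers of green leaf were abundant in all parental libraries (33080 to 41660 CPM summed over 3 genes). The sums over 3 floral organ markers and over 3 seed storage markers were at most 2.28 and 4.64 CPM in the parents, and the seed storage gene 2S3 was at 0 in all 12. Replicates were also compared by their counts over all genes, with a chi-square per degree of freedom that grows with depth. The F1 pairs, of lower depth, ranged from 8.64 to 46.8 and are not on one scale with the parental pairs. In Ler prmt5-5, replicate 1 differed from replicates 2 and 3 with values of 69.4 and 55.6, against 7.19 between replicates 2 and 3. The parental pairs of the other groups ranged from 11.3 to 34.5. The main results that rest on Ler prmt5-5 replicate 1 are therefore also given without it.

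The pathway runs in order. Chalcone synthase (CHS) makes the first flavonoid skeleton, chalcone isomerase (CHI) closes its ring, flavanone 3-hydroxylase (F3H) gives dihydroflavonols, and flavonoid 3'-hydroxylase (F3'H) adds a hydroxyl group to the B ring. Flavonol synthase (FLS1) turns dihydroflavonols into flavonols, whereas dihydroflavonol reductase (DFR) and leucoanthocyanidin dioxygenase (LDOX) lead to anthocyanidins. MYB12 and MYB111 are known to activate the early and flavonol genes, and PAP1 (MYB75) is known to activate the late genes together with bHLH proteins such as TT8 and the WD40 protein TTG1.

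The promoters of 4 members are shown because the comparisons below turn on an early gene (CHS), the late pair (DFR and LDOX) and their regulator (PAP1). Each run is the 250 bases before the annotated start, on the gene's own strand, from RefSeq TAIR10.1, and capitals mark CACGTG, the G-box bound by bZIP and bHLH factors.
CHS, chr5:4488226-4488475, plus strand: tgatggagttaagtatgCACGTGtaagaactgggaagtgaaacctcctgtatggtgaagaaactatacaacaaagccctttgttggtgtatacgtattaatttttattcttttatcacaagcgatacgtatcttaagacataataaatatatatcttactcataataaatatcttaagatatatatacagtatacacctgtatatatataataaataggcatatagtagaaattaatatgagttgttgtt
DFR, chr5:17166033-17166282, minus strand: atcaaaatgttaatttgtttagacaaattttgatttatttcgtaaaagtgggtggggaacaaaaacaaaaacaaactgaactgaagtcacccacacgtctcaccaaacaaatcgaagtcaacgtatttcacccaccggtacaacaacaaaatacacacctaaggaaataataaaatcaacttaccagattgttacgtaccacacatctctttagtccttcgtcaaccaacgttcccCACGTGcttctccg
LDOX, chr4:12006210-12006459, minus strand: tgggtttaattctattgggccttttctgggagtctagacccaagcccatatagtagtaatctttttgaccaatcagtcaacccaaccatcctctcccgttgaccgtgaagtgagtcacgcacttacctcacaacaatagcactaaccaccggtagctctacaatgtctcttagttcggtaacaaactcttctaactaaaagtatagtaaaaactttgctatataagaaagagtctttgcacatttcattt
PAP1, chr1:21235293-21235542, minus strand: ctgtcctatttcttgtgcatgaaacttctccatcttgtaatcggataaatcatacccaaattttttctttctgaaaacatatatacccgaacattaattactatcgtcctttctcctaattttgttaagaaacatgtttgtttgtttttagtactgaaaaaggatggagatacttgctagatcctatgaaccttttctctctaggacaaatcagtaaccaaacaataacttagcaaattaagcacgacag
CACGTG, which reads the same on both strands, was found in 4 of 10 member promoters (CHS, F3H, DFR and MYB12) and in 6.49% of 27443 promoters of this length. It began 233 bases before the CHS start and 14 bases before the DFR start. The wider E-box CANNTG, which includes every CACGTG, was in 7 of 10 members (not in FLS1, LDOX or PAP1) and in 55.3% of all promoters. The MYB elements ACCTACC and ACCTAAC, searched on both strands, were in no member promoter and in 1.16% and 2.46% of all promoters.

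The series title concerns donor splice sites, so the donors of PAP1 and CHI, the 2 members with the largest allelic differences in WT F1, are given, as 3 exon bases followed by 6 intron bases with the GT in capitals. They were chosen after those differences were seen.
PAP1 intron 1: ctgGTatgt
PAP1 intron 2: tagGTatta
CHI intron 1: ccgGTtcgt
CHI intron 2: ccgGTaact
CHI intron 3: acgGTaatt
All 27 annotated introns of the members begin with GT. A G at the last exon base stood in 19 of them, against 76.3% of 133510 introns of the genome, and a G at intron base 5 stood in 14, against 49.6%. The deposited values are totals per gene, so splicing itself was not measured here. PAP1 (AT1G56650) lies on chromosome 1 from 21233555 to 21235292, minus strand, and CHI (AT3G55120) on chromosome 3 from 20430059 to 20431597, minus strand (TAIR10.1). CHS (AT5G13930) overlaps AT5G13940 and F3H (AT3G51240) overlaps AT3G51238, in both cases on the opposite strand. The sources used here do not give the use of strand in counting, so reads of these 2 pairs cannot be told apart.

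Per kilobase of annotated exon, CHS had by far the highest level in Col WT, 298 CPM per kb (SD 46.4, n = 3). FLS1 followed at 79.2 (SD 18.5), F3H at 72.1 (SD 15.9) and CHI at 47.4 (SD 8.08) CPM per kb, and FLS1 and F3H did not differ beyond their spread. The late genes DFR and LDOX lay close together at 30.3 (SD 1.49) and 27.7 (SD 1.49) CPM per kb, above F3'H at 14.8 (SD 1.73). The regulators were lowest, with MYB12 at 5.65 (SD 1.36), MYB111 at 5.11 (SD 1.35) and PAP1 at 4.09 (SD 0.134) CPM per kb. MYB111 overlapped with both of the others, and PAP1 lay below all MYB12 libraries.

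The comparison of prmt5-5 with WT in Col asked how the mutation changes RNA levels in the accession where the mutant was found. The anthocyanin regulator PAP1 and both late enzyme genes rose, and the trunk and flavonol genes did not pass the test. Of the 10 members, 3 rose and 0 fell, where 26.9% of 22924 genes tested were called (14.6% higher and 12.3% lower). The median log2 difference was 0.18 over the members and 0.01 over all genes.

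PAP1 was at 4.47, 4.7 and 4.42 CPM in Col WT and at 12.3, 16.6 and 6.5 CPM in Col prmt5-5. The 3 mutant libraries all lay above the WT libraries but spread widely, with replicate 3 the lowest. The log2 difference was 1.38 (SE 0.28, n = 3 per group, edgeR adjusted p = 0.00381), and without that replicate it was 1.67.

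DFR, the entry to the anthocyanin branch, was at 47.7, 43.4 and 46.9 CPM in Col WT and at 83.7, 108 and 57.5 CPM in prmt5-5, a log2 difference of 0.85 (SE 0.26, edgeR adjusted p = 0.0335). LDOX, the next enzyme, was at 38.6, 36.7 and 40.8 CPM in WT and at 71.4, 88.8 and 44.8 CPM in prmt5-5, a log2 difference of 0.82 (SE 0.26, edgeR adjusted p = 0.0402). In both genes the groups did not overlap, and prmt5-5 replicate 3 was again the lowest mutant library and replicate 2 the highest, as for PAP1. The DFR call was lost in 7 of 18 alternative settings, among them the omission of any one Col library other than prmt5-5 replicate 3 (adjusted p up to 0.0985). The LDOX call was lost in 12 of 18 (adjusted p up to 0.118), among them the same omissions and those of any Ler WT library or Ler prmt5-5 replicate 2. With a replicate block in the fit, or with no filter on low counts, fewer members were called in Col, as given in the closing sections.

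The genes of the trunk were not called. CHS was at 430.5, 588 and 504 CPM in Col WT and at 563, 631 and 486 CPM in prmt5-5, which overlapped (log2 difference 0.14, SE 0.15). CHI (0.22, SE 0.14), F3H (0.15, SE 0.15), F3'H (0.30, SE 0.16) and FLS1 (0.13, SE 0.19) also had overlapping groups and adjusted p from 0.188 to 0.644 in edgeR. The flavonol regulators MYB12 (-0.13, SE 0.14) and MYB111 (-0.19, SE 0.21) had log2 differences below 0 and did not pass the test.

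**Figure D1:**
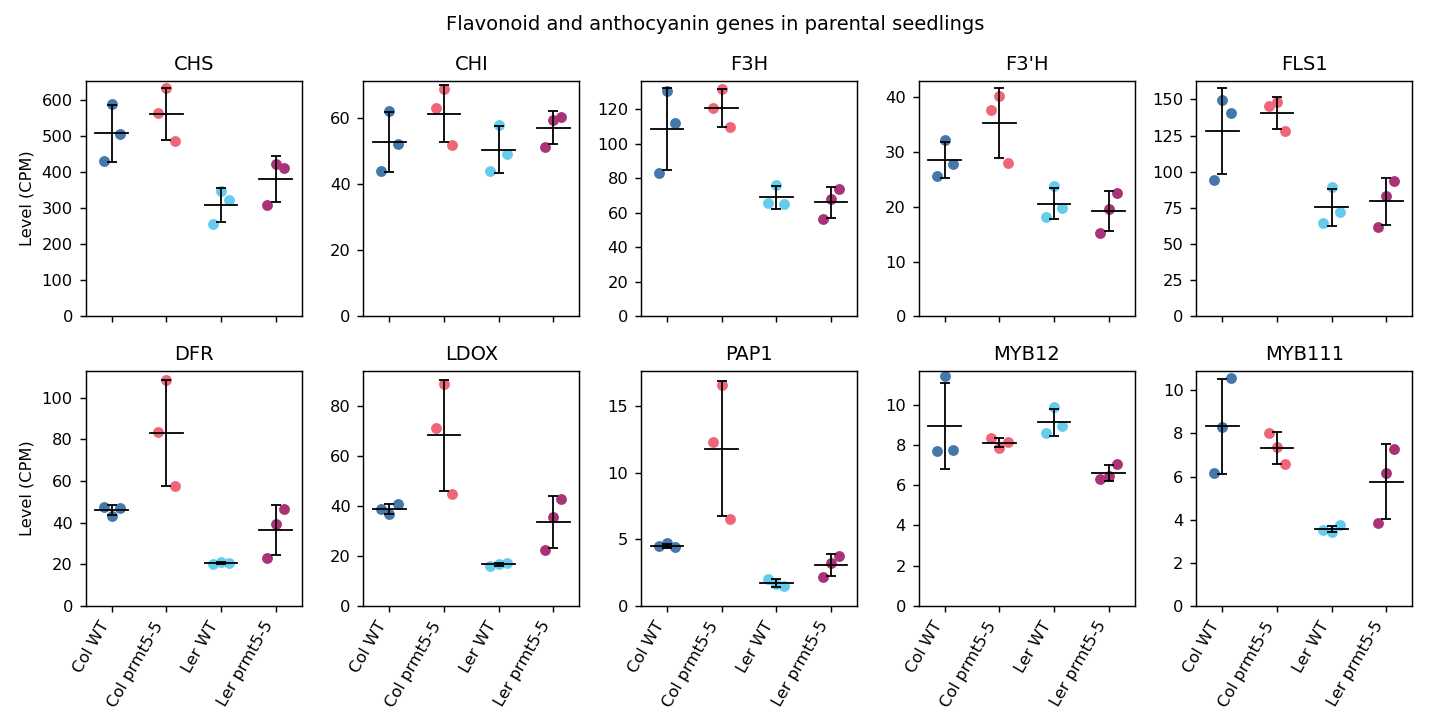
Level in CPM of each of the 10 genes in the 12 parental libraries, on axes that start at 0. Points are libraries, long bars are means and whiskers are SD (n = 3); DFR, LDOX and PAP1 are above WT in all prmt5-5 libraries of both accessions, and most genes are lower in Ler than in Col.

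The same comparison in Ler asked whether the mutant changes these genes in an accession with another sequence. The late enzymes rose here too, and the 2 flavonol regulators moved apart. Of the 10 members, 3 rose (DFR, LDOX and MYB111) and 1 fell (MYB12), where 35.7% of genes were called, 18.9% higher and 16.9% lower. The median log2 difference was 0.24 over the members and 0.01 over all genes.

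LDOX was at 15.9, 16.7 and 17.1 CPM in Ler WT and at 22.4, 35.7 and 42.9 CPM in Ler prmt5-5, a log2 difference of 1.02 (SE 0.26, edgeR adjusted p = 0.0134) that held in all 18 alternatives. DFR was at 20.3, 21 and 20.8 CPM in WT and at 23.2, 39.4 and 46.8 CPM in prmt5-5, a log2 difference of 0.81 (SE 0.26, edgeR adjusted p = 0.035). The groups did not overlap in either gene, and replicate 1 was the lowest mutant library in both. The DFR call was lost in 8 of 18 alternatives, with adjusted p up to 0.119, among them the omission of Col WT replicate 1 or of any Ler library other than prmt5-5 replicate 1, without which the log2 difference was 1.06.

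PAP1 was at 2.06, 1.64 and 1.48 CPM in Ler WT and at 2.2, 3.25 and 3.77 CPM in Ler prmt5-5. The groups did not overlap, but replicate 1 of the mutant was close to WT, and the log2 difference of 0.81 (SE 0.31, edgeR adjusted p = 0.0608) did not pass the test. It passed in 5 of 18 alternatives (DESeq2, only the Ler groups, or without Ler prmt5-5 replicate 1 or Col prmt5-5 replicate 2 or 3), with adjusted p from 0.0085 to 0.186 over all 18.

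MYB12 was at 8.58, 9.87 and 8.92 CPM in Ler WT and at 6.29, 6.44 and 7.02 CPM in prmt5-5, a fall with a log2 difference of -0.47 (SE 0.14, edgeR adjusted p = 0.0155). MYB111, its close relative, was at 3.51, 3.43 and 3.73 CPM in WT and at 3.86, 6.14 and 7.29 CPM in prmt5-5, a rise of 0.69 (SE 0.22, edgeR adjusted p = 0.0283). Neither pair of groups overlapped. The MYB12 call was lost without Ler WT replicate 2 (adjusted p = 0.0599), and the MYB111 call without any of the 3 WT libraries or prmt5-5 replicates 2 or 3 (adjusted p up to 0.126). The targets of these factors did not pass the test: CHS had a log2 difference of 0.31 (SE 0.15), CHI 0.18 (SE 0.14), F3H -0.06 (SE 0.15), F3'H -0.11 (SE 0.16) and FLS1 0.07 (SE 0.19). The summed level of 4 root markers was 3780 to 4160 CPM in Ler WT and 2861 to 2957 CPM in Ler prmt5-5, with all 4 means lower in the mutant, while it was 1937 to 2562 CPM over both Col groups. Without Ler prmt5-5 replicate 1, the library that differed from its group over all genes, 6 members were called, where 38.6% of all genes were, against 35.7% with it. LDOX was then at 1.25 (SE 0.24), DFR at 1.06 (SE 0.21), PAP1 at 1.01 (SE 0.34, edgeR adjusted p = 0.0362), MYB111 at 0.92 (SE 0.19), CHS at 0.44 (SE 0.15, edgeR adjusted p = 0.0354) and MYB12 at -0.44 (SE 0.15). The part of the root marker difference in the results for Ler was not tested, and in whole seedlings fewer cells of a type and less RNA per cell cannot be told apart.

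The effect in Ler was then compared with the effect in Col by the interaction term. None of the 10 members passed, where 3.35% of genes did. The lowest p belonged to MYB111, with an effect in Ler that exceeded that in Col by 0.88 on the log2 scale (SE 0.31, edgeR adjusted p = 0.145, unadjusted p = 0.0136). The interaction was -0.56 for PAP1 (SE 0.42), -0.04 for DFR (SE 0.36) and 0.20 for LDOX (SE 0.37). At an unadjusted p under 0.05 MYB111 alone passed, DESeq2 called 0 members, and the MYB111 term was called without Ler prmt5-5 replicate 1 (adjusted p = 0.0146), where 7.63% of genes were.

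**Figure D2:**
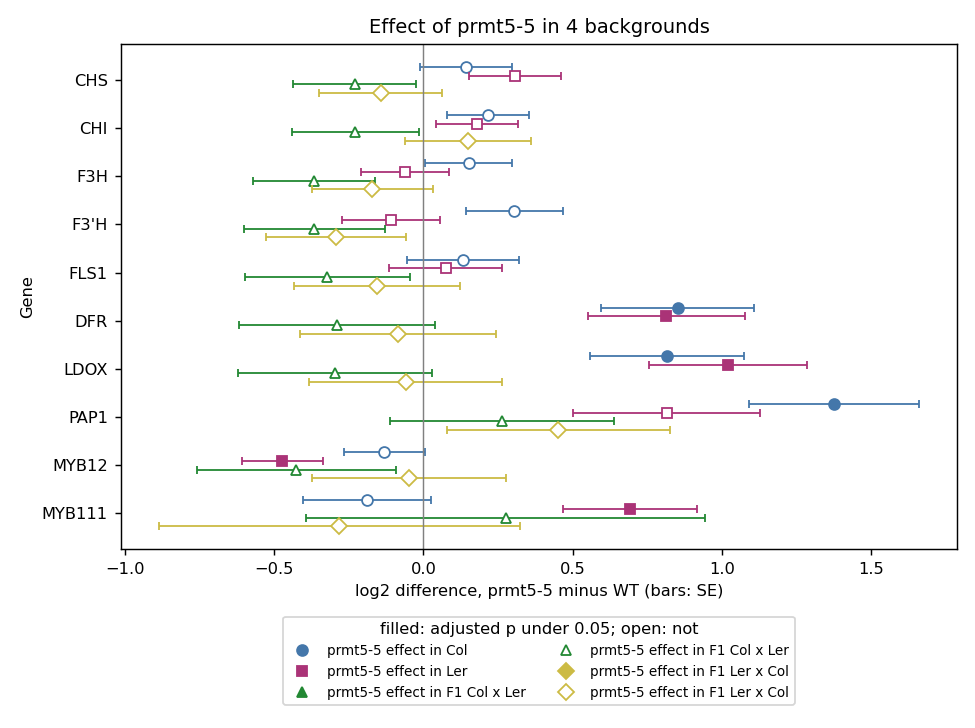
Log2 difference between prmt5-5 and WT for each gene (y axis) in Col, Ler and both F1 hybrids, with SE bars and filled symbols where the edgeR adjusted p was under 0.05. DFR and LDOX lie between 0.81 and 1.02 in both parents, and no F1 value passed the test.

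Between the accessions, most members were lower in Ler. In WT, 8 of 10 members were lower in Ler than in Col and 0 were higher, where 29.8% of genes were called and 15.2% were lower. The median was -0.74 over the members and 0.00 over all genes. PAP1 was furthest below Col, with a log2 difference of -1.38 (SE 0.31, edgeR adjusted p = 0.00477), followed by MYB111 at -1.23 (SE 0.22), LDOX at -1.22 (SE 0.26) and DFR at -1.15 (SE 0.26). The trunk genes CHS (-0.72, SE 0.15), F3H (-0.66, SE 0.15) and FLS1 (-0.76, SE 0.19) were lower by less than 1 log2 unit, and F3'H (-0.47, SE 0.16, edgeR adjusted p = 0.0484) lost its call in 8 of 18 alternatives, among them the omission of Col WT replicate 2 or 3, Ler WT replicate 1 or 3, Col prmt5-5 replicate 1 or Ler prmt5-5 replicate 2.

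CHI and MYB12 were the exceptions. CHI was at 44.1, 62 and 52.2 CPM in Col WT and at 44.1, 58 and 49.1 CPM in Ler WT, a log2 difference of -0.06 (SE 0.14). MYB12 had a log2 difference of 0.04 (SE 0.14). CHS, in contrast, was at 255, 347 and 322 CPM in Ler WT, below all 3 Col WT libraries.

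In the prmt5-5 mutants, 7 of 10 members were lower in Ler, where 28.1% of genes were called and 14.1% were lower. PAP1 had the largest difference, -1.94 (SE 0.29, edgeR adjusted p = 0.000295), and DFR (-1.19, SE 0.26), LDOX (-1.02, SE 0.26), F3'H (-0.88, SE 0.16), F3H (-0.87, SE 0.15), FLS1 (-0.82, SE 0.19) and CHS (-0.56, SE 0.15) followed. With only these groups in the fit DFR and LDOX were not called (adjusted p = 0.0547 and 0.0831), nor was CHS without Col prmt5-5 replicate 2 or Ler prmt5-5 replicate 1. MYB111 (-0.35, SE 0.22) was not called here, and its mutant libraries overlapped between the accessions. Without Ler prmt5-5 replicate 1, 6 of 10 members were lower, where 29.3% of genes were called and 15.2% were lower, with PAP1 at -1.74 (SE 0.32), DFR at -0.95 (SE 0.22), LDOX at -0.79 (SE 0.24) and CHS no longer called (-0.43, SE 0.15, adjusted p = 0.0525). The root markers also differed between the accessions without overlap, at 3780 to 4160 CPM in Ler WT against 2196 to 2562 in Col WT and at 2861 to 2957 in Ler prmt5-5 against 1937 to 2461 in Col prmt5-5, and their part in these results was not tested. The comparisons within and between accessions share their libraries, so they are not independent of each other.

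In the F1 hybrids the summed allele counts asked whether prmt5-5 changes the genes when both genomes share a nucleus. No member passed the test in F1 Col x Ler, where 5.55% of 17301 genes were called, or in F1 Ler x Col, where 13.3% were. At an unadjusted p under 0.05 the number of members was also 0 in each cross, and DESeq2 called 0. DFR was at 212, 169 and 157 CPM in WT F1 Col x Ler and at 160, 119 and 161 CPM in its prmt5-5 counterpart (log2 difference -0.29, SE 0.33). In F1 Ler x Col it was at 154, 183 and 129 CPM in WT and at 72, 143 and 226 CPM in prmt5-5 (-0.09, SE 0.33). The mutant libraries of the second cross spread over more than the whole WT range, with replicate 1 lowest and replicate 3 highest, and LDOX showed the same order at 34.1, 53 and 86.8 CPM. The effect of prmt5-5 did not pass a test of difference between the crosses for any member or any gene (0% of genes called), nor did any member differ between reciprocal crosses in WT (0% called) or in prmt5-5 (0.00578% called, 1 gene).

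PAP1 was at 28.6, 10.7 and 12.8 CPM in WT F1 Col x Ler and at 22.7, 19.6 and 19.1 CPM in prmt5-5 (log2 difference 0.26, SE 0.38). It was at 14.1, 21.5 and 7.98 CPM in WT F1 Ler x Col and at 17.7, 19.1 and 23.4 CPM in prmt5-5 (0.45, SE 0.37). The groups overlapped in both crosses. MYB12 (3.02 to 8.12 CPM over all F1 libraries) and MYB111 (0.247 to 1.26 CPM) had few allele counts. The summed level of the 3 green leaf markers was 16580 to 23390 CPM in the 6 WT F1 libraries and 7962 to 15180 CPM in the 6 prmt5-5 F1 libraries, and the part of this difference in the F1 results was not tested.

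Allele counts within each F1 library then compared the Ler with the Col copy of each gene in the same seedlings. Over both crosses together, CHI and F3'H had more counts assigned to the Ler copy in either genotype. PAP1 switched from a Ler excess in WT to a Col excess in prmt5-5, also over both crosses together. The rule that assigned reads to an allele is not known here, and a bias of assignment within a gene was not tested. The late enzymes and FLS1 did not pass the test in either genotype. In WT F1, 5 of 9 members tested were higher from the Ler allele and 0 lower, where 30% of 16644 genes were called and 14.1% were higher. In prmt5-5 F1, 4 of 9 were higher and 1 was lower, where 33.2% were called, 14.5% higher and 18.7% lower. MYB111 was not tested, since it had 62 allele counts in all WT F1 libraries and 53 in all prmt5-5 F1 libraries.

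The Ler share of PAP1 counts was 62.7%, 64% and 55.1% in F1 Col x Ler WT and 65%, 60.2% and 71.4% in F1 Ler x Col WT. It was 49.7%, 44.4% and 40.8% in F1 Col x Ler prmt5-5 and 44.3%, 35.8% and 41.3% in F1 Ler x Col prmt5-5. All 6 WT libraries were above 50% and all 6 mutant libraries below it, without overlap. Pooled, 784 of 1266 counts came from Ler in WT (61.9%, exact 95% interval 59.2% to 64.6%) and 645 of 1522 in prmt5-5 (42.4%, 39.9% to 44.9%).

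On the log2 scale the Ler minus Col difference of PAP1 was 0.74 in WT F1 (SE 0.13, edgeR adjusted p = 1.51e-05) and -0.43 in prmt5-5 F1 (SE 0.12, edgeR adjusted p = 0.00392). The change of the allelic ratio was -1.18 (SE 0.18, edgeR adjusted p = 5.53e-06). PAP1 was the 1 member of 9 that passed this test, where 3.94% of genes did and 2.82% were lower. Within F1 Ler x Col the change was -1.45 (adjusted p = 7.72e-05), and within F1 Col x Ler it was -0.90 (adjusted p = 0.0507), just short of the threshold. The lower Ler allele in prmt5-5 F1 also missed the threshold within F1 Col x Ler (-0.29, adjusted p = 0.237) and without F1 Ler x Col prmt5-5 replicate 2 (-0.35, adjusted p = 0.0534). The test of a difference of the allelic ratio between crosses called 0 members and 0% of genes. As neighbours of PAP1, the nearest genes with at least 50 allele counts in each genotype were taken, up to 10 on each side. Only 14 were found within the window searched, which was wider than the adjacent genes. Their median Ler share was 47.7% in WT (range 36.85% to 63.55%) and 51.2% in prmt5-5 (range 35.29% to 61.08%). The pooled PAP1 share lay inside the range in either genotype.

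**Figure D3:**
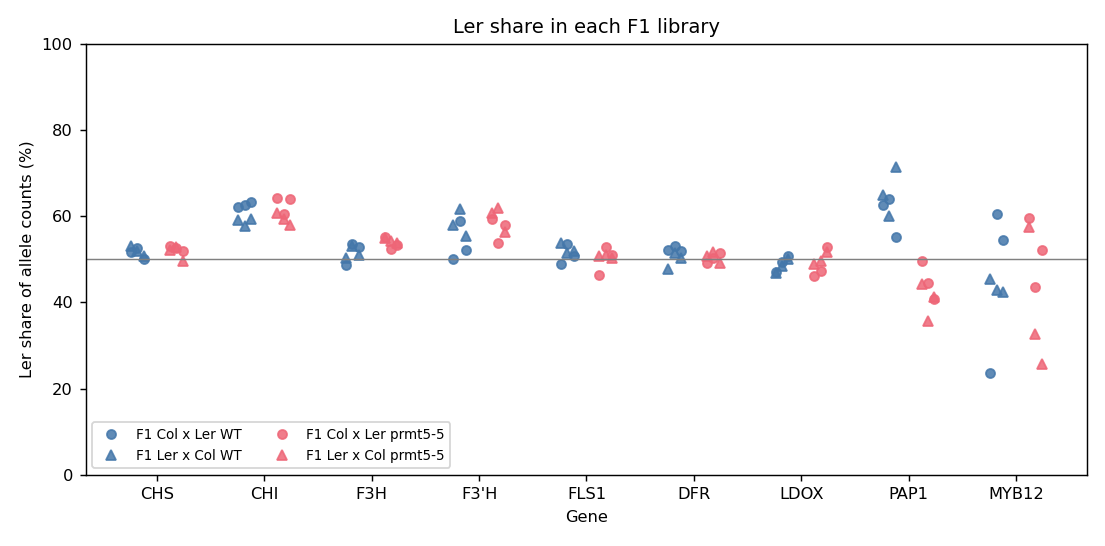
Ler share of allele counts (%) of 9 genes in each of the 12 F1 libraries, with circles for F1 Col x Ler, triangles for F1 Ler x Col and a line at 50%. The 6 WT libraries of PAP1 lie between 55.1% and 71.4% and the 6 prmt5-5 libraries between 35.8% and 49.7%; CHI lies above 50% in all 12, and MYB111 is left out for its low counts.

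Each copy of PAP1 was also followed alone. The Col allele was at 10.6, 3.85 and 5.77 CPM in WT F1 Col x Ler and at 11.4, 10.9 and 11.3 CPM in prmt5-5. It was at 4.94, 8.57 and 2.28 CPM in WT F1 Ler x Col and at 9.83, 12.3 and 13.7 CPM in prmt5-5. Every mutant library was above every WT library within each cross, though in F1 Col x Ler replicate 1 of the WT stood close to the mutant. Over both crosses the Col allele rose by 0.98 on the log2 scale (SE 0.29, edgeR adjusted p = 0.0284), the 1 of 9 members called where 19.1% of 15885 genes were called and 11.3% were higher. This call was lost in 9 of 16 alternatives, with adjusted p up to 0.0769. It was kept without F1 Col x Ler WT replicate 1, F1 Ler x Col WT replicate 2 or 3, or F1 Ler x Col prmt5-5 replicate 1, and lost without any other F1 library.

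The Ler allele of PAP1 was at 17.9, 6.84 and 7.09 CPM in WT F1 Col x Ler and at 11.3, 8.71 and 7.79 CPM in prmt5-5. It was at 9.18, 12.9 and 5.7 CPM in WT F1 Ler x Col and at 7.83, 6.84 and 9.67 CPM in prmt5-5. These groups overlapped, with a log2 difference of -0.16 (SE 0.26, edgeR adjusted p = 0.715). None of the 9 members tested was called for the Ler allele by edgeR, where 18.3% of 15832 genes were at an adjusted p under 0.05. None was called by DESeq2 or had an unadjusted p under 0.05 either. F3H and F3'H had the next lowest p for the Col allele, with log2 differences of -0.32 (SE 0.13, edgeR adjusted p = 0.0951) and -0.39 (SE 0.16, edgeR adjusted p = 0.117), and both passed without F1 Col x Ler WT replicate 1.

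CHI was called in both genotypes, with a Ler excess. Its Ler share was between 57.9% and 63.2% in the 6 WT F1 libraries and between 58% and 64.3% in the 6 prmt5-5 F1 libraries, above 50% in all 12. The log2 difference between alleles was 0.63 in WT (SE 0.07, edgeR adjusted p = 1.8e-10) and 0.66 in prmt5-5 (SE 0.06, edgeR adjusted p = 2.68e-11), and it did not pass the test of change between genotypes (0.03, SE 0.09). The CHI levels of the parental WT seedlings overlapped, as given above. F3'H was higher from the Ler allele by 0.37 in WT (SE 0.09), a call lost within F1 Col x Ler (adjusted p = 0.23), and by 0.50 in prmt5-5 (SE 0.09).

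CHS and F3H had small Ler excesses. The Ler share of CHS was 51.5% of 28802 counts in WT and 52.2% of 23976 in prmt5-5, and its log2 difference of 0.10 in WT (SE 0.03, edgeR adjusted p = 0.0139) was lost in 5 of 19 alternatives, among them the omission of F1 Col x Ler WT replicate 2 or F1 Ler x Col WT replicate 1. F3H had log2 differences of 0.10 in WT (SE 0.03), a call lost in 7 of 19 alternatives (without F1 Col x Ler WT replicate 2 or 3 or F1 Ler x Col WT replicate 2, for example), and 0.23 in prmt5-5 (SE 0.03, edgeR adjusted p = 2.97e-07). DFR, LDOX, FLS1 and MYB12 had pooled Ler shares of 51.3%, 48.9%, 51.8% and 46.6% in WT and of 50.6%, 49.5%, 50.3% and 44.9% in prmt5-5, and none of these passed the test.

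The difference between parents was then set against the difference between alleles. In WT, 7 members were lower in the Ler plants and not from the Ler allele, and MYB111 could not be compared by allele alone. There the parental minus the allelic Ler minus Col difference was called below 0 in 8 of 10 members, where 11.2% of 21171 genes were called and 5.62% were lower. It was -2.12 for PAP1 (SE 0.21, edgeR adjusted p = 8.91e-07), -1.23 for DFR (SE 0.09), -1.16 for LDOX (SE 0.10), -0.87 for FLS1 (SE 0.18), -0.84 for F3'H (SE 0.15), -0.82 for CHS (SE 0.13), -0.75 for F3H (SE 0.15) and -0.69 for CHI (SE 0.14). DFR and LDOX had an allelic difference of 0.07 (SE 0.04) and -0.07 (SE 0.07) beside parental differences of -1.15 (SE 0.26) and -1.22 (SE 0.26). The joint fit of either genotype pooled the spread between parental libraries with that between the alleles within F1 libraries. Its SE for DFR and LDOX in WT was below that of the parental difference alone. The p-values of this fit therefore do not measure the spread between seedling samples alone. PAP1 was lower in the Ler plants and higher from the Ler allele, whereas CHI had a parental difference of -0.06 and an allelic difference of 0.63. A bias of allele assignment, which was not tested, would enter these values. MYB12 (0.15, SE 0.26) and MYB111 (-1.69, SE 0.58, edgeR adjusted p = 0.071) were not called, though MYB111 was called without Col WT replicate 1 or replicate 1 of either WT F1 (adjusted p from 0.0223 over 16 alternatives).

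In prmt5-5, 7 of 10 members were called, all below 0, where 10.3% of 21031 genes were called and 3.6% were lower. F3'H (-1.35, SE 0.19), F3H (-1.07, SE 0.11), FLS1 (-0.81, SE 0.15), CHI (-0.73, SE 0.12) and CHS (-0.65, SE 0.13) were among them. PAP1 (-1.47, SE 0.37, edgeR adjusted p = 0.0237) lost its call in 6 of 16 alternatives, without F1 Col x Ler prmt5-5 replicate 1 or 2, F1 Ler x Col prmt5-5 replicate 1 or 3, or Ler prmt5-5 replicate 1 or 2. DFR (-1.19, SE 0.32, edgeR adjusted p = 0.0438) lost its call in 10 of 16, without any prmt5-5 F1 library, Col prmt5-5 replicate 1 or 2 or Ler prmt5-5 replicate 2 and with no filter on low counts. Without Ler prmt5-5 replicate 1, 6 members were called, where 13.4% of genes were called and 5.1% were lower. LDOX (-0.96, SE 0.33, edgeR adjusted p = 0.102) was called only by DESeq2 and without Col prmt5-5 replicate 3.

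**Figure D4:**
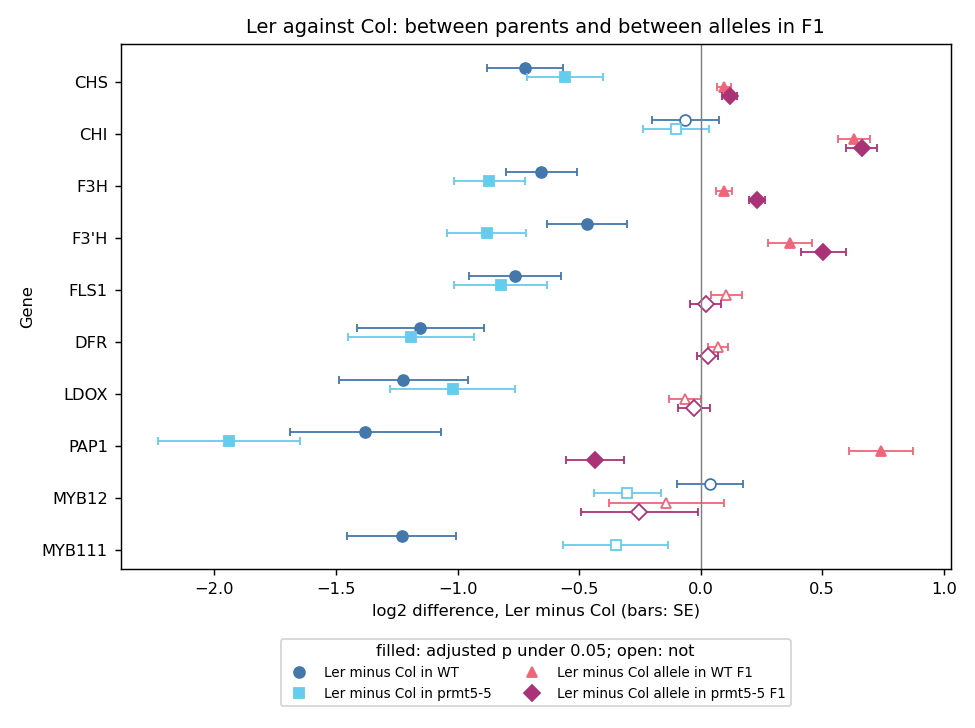
Ler minus Col log2 difference of each gene between the parents (circles and squares) and between the alleles of the F1 (triangles and diamonds), in WT and prmt5-5, with SE bars and filled symbols where the edgeR adjusted p was under 0.05. Between parents, 8 genes in WT and 7 in prmt5-5 have filled symbols below 0; between alleles, DFR and LDOX are near 0 and PAP1 is at 0.74 in WT and -0.43 in prmt5-5.

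A further 62 genes of the pathway, in 6 lists, were read in the same fits. Of the 8 genes that decorate and transport anthocyanins, 5 rose and 0 fell in Col, and 5 rose and 0 fell in Ler, where 26.9% and 35.7% of all genes were called, with list medians of 0.44 and 0.55. BGLU10, known to add glucose to anthocyanins, rose by 0.51 in Col (SE 0.10) and 0.87 in Ler (SE 0.10). 5MAT, which adds a malonyl group to anthocyanins, rose by 0.80 in Col (SE 0.21) and 0.76 in Ler (SE 0.23), GSTF12 (TT19), needed to carry anthocyanins to the vacuole, by 0.74 in Col (SE 0.21), and the acyltransferase gene 3AT1 by 0.77 in Ler (SE 0.21). In WT, 8 of 8 of these genes were lower in Ler than in Col (median -0.81), and in prmt5-5 6 of 8 were, where 15.2% and 14.1% of all genes were lower. In the F1, 6 of the 8 could be tested, and 1 rose in Col x Ler (BGLU10, 0.96, SE 0.22) and 0 in Ler x Col, where 5.55% and 13.3% of all genes were called. The counts rest on several near-threshold genes: leaving out 1 library, 1 (without Col prmt5-5 replicate 2) to 5 rose in Col and 2 (without Ler WT replicate 1 or 2 or Ler prmt5-5 replicate 3) to 6 in Ler, and any Col library but prmt5-5 replicate 3 lowered the Col count to 3 or fewer. BGLU10 kept its call in all 18 alternatives in both accessions, whereas GSTF12 in Col lost it in 5. When Ler prmt5-5 replicate 1 was left out, 6 of the 8 rose in Ler, where 38.6% of all genes were called, with BGLU10 at 0.90 (SE 0.11), 5MAT at 0.98 (SE 0.19) and 3AT1 at 0.86 (SE 0.24). In that fit 5 of the 8 were lower in Ler prmt5-5 than in Col prmt5-5, where 15.2% of all genes were lower.

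Among 11 further activators, 9 were tested. In Col, 1 rose and 1 fell, and in Ler, 3 rose and 1 fell, where 26.9% and 35.7% of all genes were called. PAP2 (MYB90), a close relative of PAP1, rose in Ler from 0.0395 to 0.344 CPM (log2 difference 3.00, SE 0.54, edgeR adjusted p = 0.00073). In Col its log2 difference of 0.15 (SE 0.44) was not called, and the interaction was called (2.85, SE 0.71, edgeR adjusted p = 0.0422). The 3 Ler WT libraries were at only 0.0265 to 0.056 CPM for PAP2, so its rise and interaction rest on few counts. The HY5 homologue HYH, a bZIP factor of light signalling, rose in Ler by 0.45 (SE 0.12, not called without Ler WT replicate 3) and fell in Col with a log2 difference of -0.57 (SE 0.12), and the interaction was called (1.03, SE 0.17, edgeR adjusted p = 0.00659). The bHLH gene TT8, named as a partner of PAP1 after its values were seen, rose by 0.92 in Ler (SE 0.29), and GL3, another bHLH gene, fell by 1.06 (SE 0.24). In Col, UVR8, the UV-B receptor, rose by 0.18 (SE 0.06), a call lost in 15 of 18 alternatives, and HY5 had a log2 difference of -0.26 (SE 0.10) that was not called. TT8 was also lower in Ler WT than in Col WT (-1.16, SE 0.29), as was HYH (-1.27, SE 0.12). Without Ler prmt5-5 replicate 1, 3 of the 9 activators tested rose and 1 fell in Ler, where 38.6% of all genes were called. PAP2 was then at 3.15 (SE 0.59), TT8 at 1.15 (SE 0.28), HYH at 0.41 (SE 0.14) and GL3 at -1.04 (SE 0.28). The interaction was called for PAP2 (3.00, SE 0.77) and HYH (0.99, SE 0.18), where 7.63% of all genes were. PAP2 has near copies in a cluster of MYB genes, and reads may be split between them.

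Among 15 repressors, 4 fell and 1 rose in Col, and 7 fell and 1 rose in Ler, with medians of -0.23 and -0.42, where 12.3% and 16.9% of all genes were lower and 26.9% and 35.7% were called in either direction. MYBL2, a MYB protein that represses anthocyanin genes, was at 61.1 CPM in Ler WT (SD 6.97) and 20.4 CPM in Ler prmt5-5 (SD 7.17), a fall with a log2 difference of -1.58 (SE 0.24, edgeR adjusted p = 0.000584). In Col it was at 14.2 CPM in WT (SD 3.08) and 9.85 CPM in prmt5-5 (SD 1.63), a log2 difference of -0.53 (SE 0.24) that was not called. Its interaction of -1.04 (SE 0.34) was not called with all libraries in the fit. Without Ler prmt5-5 replicate 1, 3 of the 15 repressors had a called interaction below 0, where 4% of all genes did. MYBL2 was higher in Ler WT than in Col WT by 2.10 (SE 0.24). The F-box genes that mark PAL for degradation, KFB-PAL50 and KFB-PAL39, fell by 1.21 (SE 0.17) and 1.08 (SE 0.17) in Ler, and KFB-PAL39 fell by 0.55 in Col (SE 0.17). LBD37, a repressor tied to nitrogen supply, fell by 0.37 in Col (SE 0.08). COP1, a ubiquitin ligase of light signalling, was the 1 repressor that rose, by 0.27 in Col (SE 0.07) and by 0.38 in Ler (SE 0.07). With 1 library left out, 1 (without Col WT replicate 3, for example) to 6 repressors fell in Col, and LBD37 kept its call in all 18 alternatives there, as did MYBL2 and KFB-PAL50 in Ler. Without Ler prmt5-5 replicate 1, 8 repressors fell and 1 rose in Ler, where 18.6% of all genes were lower. MYBL2 was then at -1.89 (SE 0.20), KFB-PAL50 at -1.36 (SE 0.19), KFB-PAL39 at -1.305 (SE 0.15) and COP1 at 0.43 (SE 0.07).

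Of 8 general phenylpropanoid genes, 1 rose in Col (4CL2, 0.52, SE 0.09), where 26.9% of all genes were called, and in Ler, where 35.7% were, 4CL3 rose by 0.69 (SE 0.17) and PAL4 fell by 0.51 (SE 0.12). PAL2 was not called, with log2 differences of -0.16 in Col (SE 0.13) and -0.34 in Ler (SE 0.13), nor was 4CL3 in Col (0.14, SE 0.16). Of 12 flavonol genes tested out of 13, 1 rose in Col (UGT73C6, a flavonol glucosyltransferase, 0.89, SE 0.30, a call lost in 13 of 18 alternatives), and in Ler 3 rose and 2 fell. UGT73C6 rose by 1.24 (SE 0.30) and the rhamnosyltransferase gene UGT78D1 by 0.45 (SE 0.11), while FLS3, a relative of FLS1, fell by 0.42 (SE 0.08) and OMT1, an O-methyltransferase gene, by 0.46 (SE 0.12). FLS2 (-0.36, SE 0.13) and CHIL (0.28, SE 0.13) were not called in Col. UGT73C6 is named in Ler for its call in Col. With Ler prmt5-5 replicate 1 left out, 5 of the 12 flavonol genes tested rose and 2 fell in Ler, where 38.6% of all genes were called. UGT73C6 (1.42, SE 0.32) and UGT78D1 (0.54, SE 0.10) were among those that rose, and FLS3 (-0.42, SE 0.09) and OMT1 (-0.42, SE 0.14) fell. The general phenylpropanoid genes 4CL3 (0.87, SE 0.14) and PAL4 (-0.59, SE 0.13) were again called. Of the 7 genes for proanthocyanidins of the seed coat, 3 were tested and 0 were called in either accession. In Col the log2 difference was 0.83 for BAN (SE 0.49), -0.25 for AHA10 (SE 0.19) and -0.22 for TT12 (SE 0.27). In Ler it was -0.02 for AHA10 (SE 0.20) and 0.29 for TT12 (SE 0.26), and BAN was at 0 in all WT libraries and at 0.0275 to 0.0374 CPM in prmt5-5. BAN had an unadjusted p of 0.0291 in Ler and was the 1 gene of the list under 0.05 in either accession.

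The genes with profiles most like those of 2 members were sought over the 12 parental libraries among 22402 genes, by the mean absolute difference of centred log2 CPM. Outside the members and lists, nearest to CHS were AT1G04770 (0.07), AT5G24810 (0.09) and AT5G17010 (0.10), and among the members FLS1 (0.13), F3H (0.14) and F3'H (0.15). Nearest to PAP1 were BAT5 (AT4G12030, 0.23), AT3G09160 (0.24) and AT3G05400 (0.25), whereas DFR (0.21) and LDOX (0.25) were the closest members. All genes share the depth and tissue of the same libraries, and the distances describe these libraries only.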

How the data were processed

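The values are read counts per gene from polyA RNA of whole seedlings (100 bp reads), as deposited by the authors, in tables of 12 parental libraries and of 12 F1 libraries with a Col-allele and a Ler-allele count each. Per the submitters' processing notes, Trim Galore, FastQC, STAR 2.7.9a and TAIR10 were used, while the sources used here do not give the counting tool, annotation, use of strand or rule for assigning alleles. The 3 genes without a Ler value were left out.

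Each table was fitted over all genes with edgeR 4.0.16 (quasi-likelihood, TMM factors, filterByExpr, robust, R 4.3.3), with Benjamini-Hochberg adjustment and a threshold of 0.05. Allele ratios were fitted on 24 allele columns with the library as a block and 1 scaling factor per library, and parental against allelic differences in one fit. Fits of each allele alone were added after the data were seen. F1 levels hold only assigned counts and are not comparable with parental levels, and CPM uses each library's TMM-scaled total. SE is the log2 difference divided by the square root of F. The scripts were tested on simulated data.

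Alternatives were size factors by RLE, DESeq2 1.42.0, no low-count filter, a non-robust fit, only the groups compared, a replicate block and leaving out each library. Members and lists were chosen with earlier results of these data known. Named list genes are the 3 with the smallest p of each list in Col and in Ler, and any other is said to be an exception. Neighbours are the nearest genes with at least 50 allele counts in each genotype, up to 10 on each side within a limited window. Likeness used genes with a mean count of at least 10.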

Additional observations from a re-analysis of the deposited data

Results flagged for a closer look

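The allelic ratio of PAP1 differed between WT and prmt5-5 F1 hybrids by -1.18 on the log2 scale, the single member whose Ler minus Col allele difference changed with the genotype by the interaction test (edgeR adjusted p = 5.53e-06). That test was over both crosses, and within F1 Col x Ler the change of -0.90 missed the threshold (edgeR adjusted p = 0.0507).

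The Ler minus Col difference between parents differed from that between alleles by a test of the difference itself in 8 members in WT. The joint fit pooled the spread between parental libraries with that between the alleles within F1 libraries. Its calls therefore do not measure the spread between seedling samples alone, and a bias of allele assignment was not tested. The parental minus allelic values were -0.82 for CHS, -0.69 for CHI, -0.75 for F3H, -0.84 for F3'H, -0.87 for FLS1, -1.23 for DFR, -1.16 for LDOX and -2.12 for PAP1, where 11.2% of genes were called and 5.62% were lower. In prmt5-5, where 10.3% of genes were called and 3.6% were lower, they were -0.65 for CHS, -0.73 for CHI, -1.07 for F3H, -1.35 for F3'H, -0.81 for FLS1, -1.19 for DFR and -1.47 for PAP1, and the call was lost in 10 of 16 alternatives for DFR and in 6 of 16 for PAP1. Groups of 3 libraries are too small for the test of a single outlying value, so none was run. The genes are not independent of each other, since they share libraries.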

How the results depend on the processing

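Of 2802 comparisons of a gene's value with an alternative, 2586 kept their direction and their side of the threshold, 130 called values lost the call, 18 passed it anew and 68 changed sign, none of which was a called value. Causes of these changes were not tested. Replicate numbers do not mark shared plantings in the labels, and the deviations of same-numbered libraries correlated over 0.1 in 2 of 18 parental pairs (-0.175 to 0.474, median -0.0538) and 8 of 18 F1 pairs (-0.374 to 0.59, median 0.0529), so the numbers were not taken to pair the samples. With the replicate block, Col held 1 called member and 3 rising decoration genes, MYB12 in F1 Ler x Col turned to 0.018, and 1 gene differed between reciprocal WT crosses. With no filter on low counts, 1 member was called in Col, 0 for the Col allele, 2 repressors fell in Col, 1 and 7 genes differed between reciprocal WT and prmt5-5 crosses, and 7 allele ratios differed between crosses. DESeq2 called 1633 interactions, 1470 genes in F1 Col x Ler, 10 differences of effect between crosses, 1 and 101 reciprocal differences (WT and prmt5-5) and 3 allelic differences among members in WT F1. The reciprocal prmt5-5 count was 4 with RLE size factors, 0 without the robust fit and 3 with only the groups compared, which gave 1387 genes in F1 Ler x Col and 2 rising decoration genes in Col. With 1 TMM factor per allele column the ratio of 2 members changed and the LDOX allele difference in prmt5-5 F1 was 0.0099.

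Within F1 Col x Ler, 2 members had an allelic difference in WT, 365 genes and 0 members changed ratio, and values turned for MYB12 (0.11 in WT and 0.10 in prmt5-5), FLS1 (-0.0030 in prmt5-5) and the LDOX ratio change (-0.015). Within F1 Ler x Col, 3 members had an allelic difference in WT, and values turned for LDOX in prmt5-5 (0.0081) and the ratio change of CHS (-0.021) and DFR (0.035). These within-cross fits were chosen after seeing the data.

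Leaving out 1 library at a time, called members were 1 to 3 in Col, 1 to 6 in Ler (lowest without Ler WT replicate 2), 0 to 1 for the interaction, 3 to 5 for WT alleles and 0 to 3 for the Col allele. Decoration genes that rose numbered 1 to 5 in Col and 2 to 6 in Ler, and repressors that fell 1 to 6 in Col. Called genes ranged from 378 (without Col WT replicate 3) to 1750 (without Ler prmt5-5 replicate 1) for the interaction, from 368 to 1083 in F1 Col x Ler, from 1308 to 2655 in F1 Ler x Col, from 0 to 6 for the allele ratio between crosses and from 0 to 1 for each reciprocal comparison.

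Values that were not called and turned with 1 library left out had these ranges. In Col they were F3H -0.0077 to 0.28, FLS1 -0.047 to 0.23, MYB12 -0.23 to 0.050 and MYB111 -0.37 to 0.024. In Ler they were F3H -0.15 to 0.041, F3'H -0.24 to 0.034 and FLS1 -0.060 to 0.23. The interaction ranged for CHI from -0.15 to 0.077, for FLS1 from -0.19 to 0.12, for DFR from -0.26 to 0.21 and for LDOX from -0.027 to 0.44. Ler minus Col in WT was -0.18 to 0.065 for CHI and -0.058 to 0.24 for MYB12. In F1 Col x Ler MYB111 ranged from -0.19 to 1.03, and in F1 Ler x Col DFR from -0.52 to 0.26, F3H from -0.27 to 0.032, LDOX from -0.45 to 0.23, MYB111 from -0.67 to 0.33 and MYB12 from -0.20 to 0.091. Allelic differences ranged for MYB12 in WT from -0.31 to 0.019, and in prmt5-5 for FLS1 from -0.014 to 0.076 and for LDOX from -0.091 to 0.014. Ratio changes were -0.026 to 0.079 for LDOX and -0.40 to 0.061 for MYB12. For the Col allele CHI ranged from -0.13 to 0.11 and DFR from -0.38 to 0.023. For the Ler allele CHI ranged from -0.093 to 0.12, LDOX from -0.35 to 0.0085 and PAP1 from -0.31 to 0.10. The parental minus allelic value of MYB12 in prmt5-5 ranged from -0.24 to 0.26. In the F1, MYB111 had 62 allele counts in WT and 53 in prmt5-5, and MYB12 had 549 and 428.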

Other observations

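Outside the 10 members, the repressor gene MYBL2 had the largest allelic difference of its list, a Ler excess of 1.02 on the log2 scale in WT F1 (SE 0.09) and of 1.20 in prmt5-5 F1 (SE 0.09), and its ratio did not pass the test of change between genotypes. Between the parents MYBL2 was higher in Ler in both genotypes, by 2.10 in WT (SE 0.24) and 1.05 in prmt5-5 (SE 0.24). UGT79B1, which adds xylose to anthocyanins, was higher from the Ler allele by 0.66 in WT F1 (SE 0.08) and 0.96 in prmt5-5 F1 (SE 0.08), whereas between the parents it was lower in Ler by a log2 difference of -1.04 in WT (SE 0.27) and -0.96 in prmt5-5 (SE 0.27). With Ler prmt5-5 replicate 1 left out, the parental differences in prmt5-5 were 0.73 for MYBL2 (SE 0.19) and -0.66 for UGT79B1 (SE 0.17), both called. UGT79B1 was chosen after its values were seen. Of the 15 repressors, 13 could be tested for a change of allelic ratio, and LBD38 was the 1 called, where 3.94% of all genes were (-0.28, SE 0.08, edgeR adjusted p = 0.0327).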
